A study of Homo sapiens with 17 samples.

Results

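The 10 genes KDM1A, KDM1B, KDM2A, KDM2B, KDM3A, KDM3B, KDM4A, KDM4B, KDM5A and KDM5B encode histone lysine demethylases, and were taken by name from the 20037 protein-coding genes of the annotation (GRCh38.p14). The set was chosen on measured values of these same lists, namely the presence, width and percentile of intervals at the gene ends by state and form. Those values are therefore described here, and no p is given for them. The measurements are lists of ChIP-seq peaks, called intervals below, for 2 forms of the histone variant H2A.Z in Caco-2/15 cells. This colon cancer line acquires enterocyte features after confluence. A Flag tag on 1 allele marked either H2A.Z.2 (heterozygous H2AFV-Flag cells) or H2A.Z.1 (heterozygous H2AFZ-Flag cells), and both were precipitated with the M2 antibody against Flag. Each form was profiled in cells held for 7 days after confluence and in subconfluent cells. The 4 groups were thus H2A.Z.2 postconfluent, H2A.Z.1 postconfluent, H2A.Z.2 subconfluent and H2A.Z.1 subconfluent, with 2 lists each, Exp1 and Exp2.

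Each form was tagged in its own edited line, so form and line cannot be told apart, and the sources used here do not say whether a line was 1 clone. Nothing in the labels says that Exp1 and Exp2 were separate cultures, so their spread may be technical. The 8 lists held 30603 to 79425 intervals, and the interval names show 3 sequencing runs. One held both Exp1 lists of H2A.Z.2, another both Exp1 lists of H2A.Z.1, and the last one all 4 Exp2 lists. Both states of a form were therefore always on the same run, whereas the forms shared a run in Exp2 alone. Peak lists give no read depth. Of 10 intestinal marker genes, CDX1, CDX2, HNF4A and CDH1 had an interval at a gene end in all 8 lists and CDH17 and KRT20 had none in any. CD14 of 6 blood markers, COL1A1 of 6 fibroblast and muscle markers and MAP2 of 4 neuron markers also had one in all 8.

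Histone lysine demethylases remove methyl groups from the tails of histones. KDM1A and KDM1B use a flavin cofactor, and the others carry a JmjC domain that needs iron and 2-oxoglutarate. KDM1 and KDM5 enzymes act on H3K4, a mark of promoters and enhancers. KDM2 enzymes act on H3K36, KDM3 enzymes on H3K9, and KDM4 enzymes on both H3K9 and H3K36. H2A.Z replaces H2A in nucleosomes that flank the starts of many genes. The values below are about where H2A.Z lay at the genes of these enzymes, not about their expression or activity.

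Tagged H2A.Z marked the starts of 8 of the 10 genes in every list, namely all except KDM2B and KDM3A. For this count each list was reduced to its 30603 strongest intervals, the length of the shortest list, and an interval had to overlap the 1 kb on either side of an annotated gene end. Of all 20037 genes, 54.3% met the same condition. KDM2B had such an interval in 5 of 8 lists and KDM3A in 0 of 8. In the whole lists the 10 genes and their 1 kb flanks held 184 intervals. Of these, 114 lay at the annotated start, 0 at the far end and 70 inside the gene, and 40 of those 70 lay within 1 kb of a start listed for the gene in the promoter table of RefSeq. With lists of 15301 intervals each, 4 of the 10 genes were still present in all 8, KDM1B, KDM3B, KDM4A and KDM5A, against 37.5% of all genes.

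**Figure D1:**
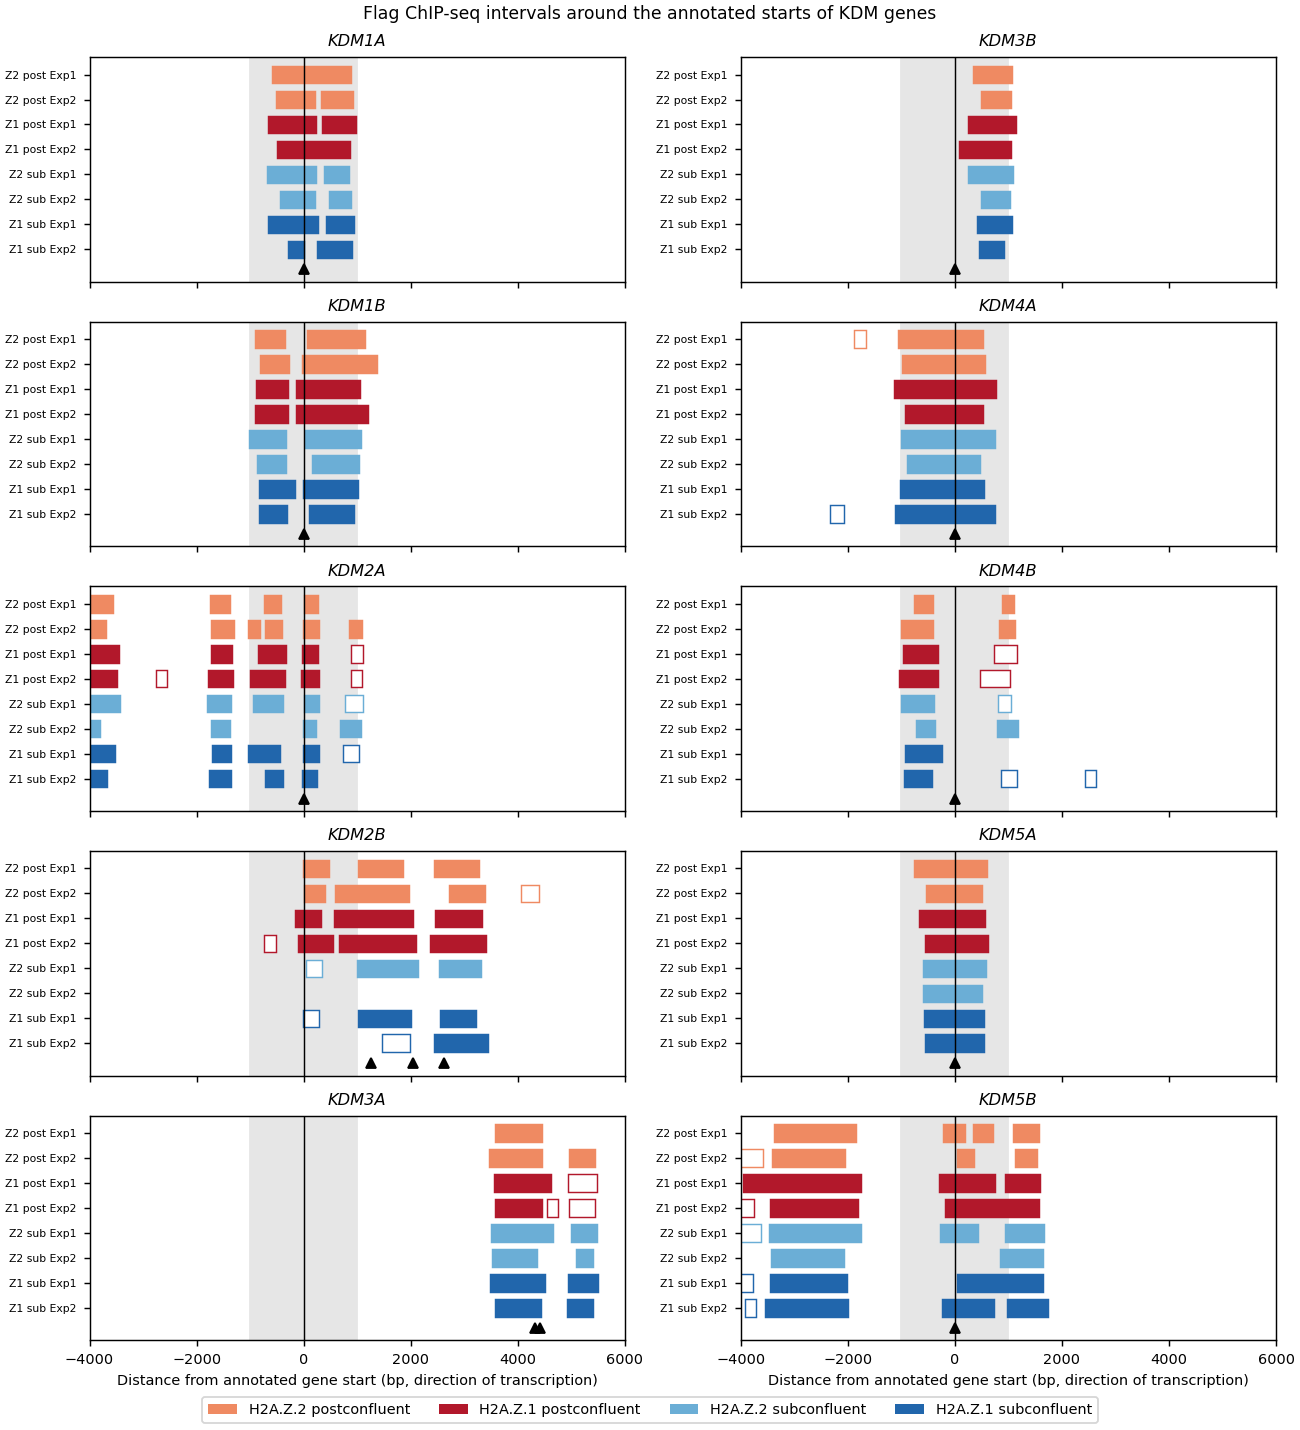
Intervals of the 8 lists (rows) around the annotated start of each gene (x axis, bp in the direction of transcription). Filled bars are among the 30603 strongest of their list, open bars are not, triangles are RefSeq listed starts and grey marks 1 kb on either side; KDM3A has no bar in the grey window, and its intervals lie by its listed starts.

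RefSeq lists 15 starts for the 10 genes, and each has a window of 250 bases before to 50 after it. The windows held 53% to 84% G and C and 12 to 46 CpG dinucleotides, against medians of 58.7% and 14 over 35116 windows of all genes. A GC box, the letters GGGCGG or on the other strand CCGCCC, was found in 12 of the 15 windows and in 45.0% of all windows. The letters CCAAT or ATTGG were found in 8 of 15 and in 34.6% of all, and TATAAA or TTTATA in 0 of 15 and in 11.5% of all. The windows of both KDM3A starts overlap and hold the same GC boxes and CCAAT letters, which are thus counted for each. A match of letters is not evidence of a bound factor. The 5 windows below are from RefSeq (GRCh38.p14) and read 5′ to 3′ on the gene's strand, with GC boxes of either strand in capitals. KDM5A (chr12:389271-389570, minus strand) and KDM4A (chr1:43649899-43650198, plus strand) are shown because strong intervals covered them in every list, KDM5B (chr1:202808372-202808671, minus strand) because the interval that differed by state had its summit inside the gene, past this window, and the first listed start of KDM3A (chr2:86441121-86441420, plus strand) and the second of KDM2A (chr11:67239764-67240063, plus strand) because intervals lay there inside the annotated gene.
KDM5A: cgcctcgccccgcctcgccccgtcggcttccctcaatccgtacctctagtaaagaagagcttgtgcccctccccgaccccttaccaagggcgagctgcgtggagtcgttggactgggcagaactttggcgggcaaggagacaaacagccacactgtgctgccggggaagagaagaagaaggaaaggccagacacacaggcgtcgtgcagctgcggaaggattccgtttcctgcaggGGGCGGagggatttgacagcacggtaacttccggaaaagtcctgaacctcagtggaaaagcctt
KDM4A: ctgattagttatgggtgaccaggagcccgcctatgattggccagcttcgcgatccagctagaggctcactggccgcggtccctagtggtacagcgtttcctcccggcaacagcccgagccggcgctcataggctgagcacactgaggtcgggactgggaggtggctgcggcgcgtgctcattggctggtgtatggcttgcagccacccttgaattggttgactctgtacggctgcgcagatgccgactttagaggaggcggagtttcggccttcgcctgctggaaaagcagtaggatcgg
KDM5B: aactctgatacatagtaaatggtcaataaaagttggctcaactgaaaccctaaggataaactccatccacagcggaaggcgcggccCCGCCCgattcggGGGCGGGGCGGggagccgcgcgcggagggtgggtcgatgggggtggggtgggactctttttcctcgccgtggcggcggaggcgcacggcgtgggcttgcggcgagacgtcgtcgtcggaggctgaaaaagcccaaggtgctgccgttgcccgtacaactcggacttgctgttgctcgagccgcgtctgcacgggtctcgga
KDM3A: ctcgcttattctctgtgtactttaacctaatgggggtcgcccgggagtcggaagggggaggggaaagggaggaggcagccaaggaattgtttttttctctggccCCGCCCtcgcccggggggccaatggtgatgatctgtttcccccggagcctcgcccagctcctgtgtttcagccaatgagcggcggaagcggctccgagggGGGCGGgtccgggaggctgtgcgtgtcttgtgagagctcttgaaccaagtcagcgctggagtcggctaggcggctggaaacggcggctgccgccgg
KDM2A: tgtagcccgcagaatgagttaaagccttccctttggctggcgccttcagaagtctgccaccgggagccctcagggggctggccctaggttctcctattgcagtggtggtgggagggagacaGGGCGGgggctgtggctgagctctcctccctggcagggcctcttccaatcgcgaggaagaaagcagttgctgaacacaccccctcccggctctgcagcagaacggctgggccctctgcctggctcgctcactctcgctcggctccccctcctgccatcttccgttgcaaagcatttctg

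The KDM5A window held 1 GC box and no CCAAT, and the KDM4A window no GC box and 3 CCAAT or ATTGG. The KDM5B window held 3 GC boxes, a pair of which overlap, and the KDM3A window 2 GC boxes and 2 CCAAT or ATTGG. In the second KDM2A window there were 12 CpG dinucleotides, against 44 in the window of its first start. The first KDM2A window had no GC box.

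KDM5A, an eraser of H3K4 trimethylation first known as a partner of the retinoblastoma protein, had an interval at percentile 89.8 or above in every list. The gene lies on chromosome 12 from 280057 to 389320 on the minus strand, with CCDC77 and a lncRNA gene within 1 kb of its start, so the interval cannot be assigned to one of them. The percentile is the rank of the authors' fold enrichment among the intervals used from the same list, where 100 is the strongest. Here and below the Exp1 value comes before the Exp2 value. The KDM5A percentile was 94.2 and 97.6 for H2A.Z.2 and 97.5 and 92.6 with H2A.Z.1 in postconfluent cells, against 96.9 and 97.7 for H2A.Z.2 and 97.7 and 89.8 for H2A.Z.1 in subconfluent cells. The groups overlapped, and the summits stood 28 to 97 bp before the annotated start in all 8 lists. Its width of 1058 to 1354 bp placed the start itself under the interval in every list.

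KDM5B, the second H3K4 trimethyl demethylase of the set, differed most by state with the 1 kb window. With a 2 kb window its score difference, explained below, was -0.94 and that of KDM4B was larger, at 1.19. It lies on chromosome 1 from 202724495 to 202808421 on the minus strand. The percentile of the interval in the window was 35.5 and 21.4 for H2A.Z.2 and 53.2 and 54.9 with H2A.Z.1 in postconfluent cells, against 84.8 and 82.4 for H2A.Z.2 and 81.2 and 95.8 for H2A.Z.1 in subconfluent cells. All 4 postconfluent values were below all 4 subconfluent ones. They averaged 41.2 ± 15.9 in postconfluent and 86.0 ± 6.65 in subconfluent lists (SD, n = 4 each). As a normal score, that is the rank among the 10887 genes present in all 8 lists in units of a standard deviation, the difference of postconfluent minus subconfluent was -1.91 (SE 0.367). It was -2.10 for H2A.Z.2 and -1.72 for H2A.Z.1 (SE 0.519 each).

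The window edge set part of this difference. KDM5B had an interval with its summit 1293 to 1421 bp inside the gene in all 8 lists, and in both H2A.Z.2 postconfluent lists that interval began 1093 and 1126 bp from the start, just outside the 1 kb window. In those lists the value above came from a weaker interval nearer the start. Followed at one place, in a range chosen after the values were seen, the inner interval stood at percentile 49.5 and 38.1 for H2A.Z.2 and 53.2 and 54.9 with H2A.Z.1 in postconfluent cells, against 84.8 and 82.4 for H2A.Z.2 and 81.2 and 95.8 for H2A.Z.1 in subconfluent cells. The groups again did not overlap, with a smaller gap for H2A.Z.2.

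Near the start of KDM5B itself the signal was weaker. A separate interval with its summit between 85 bp before and 539 bp after the start was used from 5 of 8 lists. It stood at percentile 35.5 and 21.4 for H2A.Z.2 and 25.3 for H2A.Z.1 Exp1 in postconfluent cells, against 19.0 for H2A.Z.2 Exp1 and 64.8 for H2A.Z.1 Exp2 in subconfluent cells. The value of 35.5 had its summit 539 bp after the start. The same list had a further interval at percentile 8.85, with its summit at -59 bp from the start. In H2A.Z.1 postconfluent Exp2 the start was covered by the same wide interval as the inner summit, of 1767 bp. In H2A.Z.1 subconfluent Exp1 the interval of the inner summit, of 1618 bp, began 38 bp inside the gene. H2A.Z.2 subconfluent Exp2 had only the inner interval, which began 848 bp inside.

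Another interval lay upstream of KDM5B, with its summit 2203 to 2915 bp before the start. In all 8 lists it covered the start of the lncRNA gene PCAT6, which lies 2533 bp upstream on the other strand. Its percentile was 73.2 and 64.7 for H2A.Z.2 and 93.2 and 57.4 with H2A.Z.1 in postconfluent cells, against 79.3 and 85.9 for H2A.Z.2 and 59.6 and 95.0 for H2A.Z.1 in subconfluent cells. Here the groups overlapped. Within a list, the fold enrichment of the inner interval divided by that of the upstream one was 0.767 and 0.741 for H2A.Z.2 and 0.558 and 0.971 with H2A.Z.1 in postconfluent cells. In subconfluent cells the ratio was 1.09 and 0.943 for H2A.Z.2 and 1.36 and 1.02 for H2A.Z.1. The highest postconfluent ratio, 0.971, was above the lowest subconfluent one, 0.943. A 2 kb window took in the upstream interval in some lists only. Its near end stood at -2045 bp from the start in H2A.Z.2 postconfluent Exp2, outside that window. The same held at -2020 bp in H2A.Z.1 subconfluent Exp1 and at -2063 bp in H2A.Z.2 subconfluent Exp2. The score difference of KDM5B with that window, -0.94, thus drew on the upstream interval in some lists and the inner one in others.

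**Figure D2:**
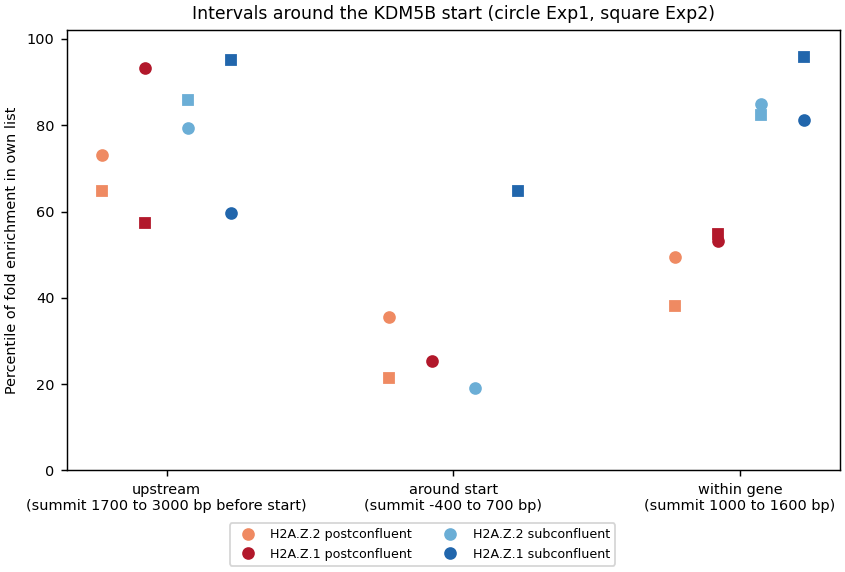
Percentile of fold enrichment within its own list (y axis) for intervals at 3 places around the KDM5B start, with circles for Exp1, squares for Exp2 and colours for the 4 groups. Inside the gene the 4 postconfluent values lie between 38.1 and 54.9, all below the subconfluent values of 81.2 to 95.8, while upstream the states overlap.

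KDM1A, the LSD1 enzyme that works on mono- and dimethylated H3K4 within the CoREST complex, was higher in rank in postconfluent cells in each of the 4 pairs of lists that share a form and an experiment. Its gene runs on chromosome 1 from 23019468 to 23083689 on the plus strand. The percentile was 80.5 and 67.1 for H2A.Z.2 and 81.5 and 85.5 with H2A.Z.1 in postconfluent cells, against 71.1 and 61.1 for H2A.Z.2 and 55.8 and 44.4 for H2A.Z.1 in subconfluent cells. The highest subconfluent value, 71.1, exceeded the lowest postconfluent one, 67.1. The score difference was 0.87 (SE 0.352). It was 0.27 for H2A.Z.2 and 1.47 for H2A.Z.1 (SE 0.498 each), and the first minus the second was -1.20 (SE 0.705).

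The interval that gave these KDM1A values had its summit 500 to 675 bp inside the gene. In 6 of 8 lists a second interval reached across the start, with its summit 117 to 235 bp before it. That interval stood at percentile 5.71 for H2A.Z.2 Exp2 and 13.4 for H2A.Z.1 Exp1 in postconfluent cells. In subconfluent cells it was at 53.9 and 42.0 for H2A.Z.2 and 44.2 and 10.8 for H2A.Z.1. The pairs that had it in both states were thus lower in postconfluent cells, at a place chosen after the values were seen. In H2A.Z.2 postconfluent Exp1 and H2A.Z.1 postconfluent Exp2 a single interval of 1475 bp and 1375 bp covered both places. KDM1A widths averaged 1019 ± 470.8 bp in postconfluent and 516 ± 95.3 bp in subconfluent lists (SD, n = 4 each), and these overlapped.

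KDM1B, the LSD2 enzyme that likewise removes H3K4 mono- and dimethylation, had strong intervals on both sides of its start in 8 of 8 lists. It lies on chromosome 6 from 18155422 to 18223854 on the plus strand, and the gene TPMT has an end within 1 kb. One summit stood 453 to 578 bp before the start and the other 300 to 654 bp after it. The stronger of the pair was at percentile 97.2 and 96.7 for H2A.Z.2 and 92.4 and 93.1 with H2A.Z.1 in postconfluent cells, against 88.4 and 94.7 for H2A.Z.2 and 99.3 and 92.3 for H2A.Z.1 in subconfluent cells. The states overlapped, and the score difference was -0.02 (SE 0.366).

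KDM2A, an H3K36 demethylase whose CXXC zinc finger binds unmethylated CpG islands, was in the middle of its lists. The gene lies on chromosome 11 from 67119263 to 67258082 on the plus strand, with a lncRNA gene within 1 kb. Its percentile was 52.2 and 46.5 for H2A.Z.2 and 54.9 and 67.0 with H2A.Z.1 in postconfluent cells, against 29.7 and 39.4 for H2A.Z.2 and 40.1 and 61.2 for H2A.Z.1 in subconfluent cells. Each of the 4 pairs was higher in postconfluent cells, while the 2 sets of 4 overlapped, and the score difference was 0.40 (SE 0.360). The strongest interval was not always the same one. A narrow interval of 247 to 341 bp had its summit 81 to 176 bp after the start in 8 of 8 lists, and another had its summit 528 to 597 bp before it in 7 of 8. At the narrow interval, H2A.Z.1 Exp1 was lower in postconfluent cells, at percentile 11.8 against 40.1, and the other pairs were higher. At the interval before the start, the pairs that had it in both states were all higher in postconfluent cells.

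Within the KDM2A gene, an interval lay at the second listed start, 120751 bp from the first, in 8 of 8 whole lists. Its summit was between 324 bp before and 255 bp after that start. It was among the strongest 30603 in 7 lists, all but H2A.Z.2 postconfluent Exp1, at percentiles of 15.4 to 59.2.

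KDM2B, the close relative of KDM2A that brings a PRC1 complex with PCGF1 and BCOR to CpG islands, had intervals at its annotated start mainly in postconfluent lists. It lies on chromosome 12 from 121408461 to 121582279 on the minus strand. The strongest interval in the window was at percentile 58.4 and 55.2 for H2A.Z.2 and 43.0 and 60.7 with H2A.Z.1 in postconfluent cells, against 34.1 for H2A.Z.2 Exp1 in subconfluent cells and none in the other 3 subconfluent lists. That single subconfluent interval touched the window by 6 bp. Its summit, and those behind all postconfluent values but 58.4, lay 1110 to 1849 bp inside the gene. In H2A.Z.2 postconfluent Exp1 the interval at this place began 1010 bp inside, just outside the window, at percentile 40.4. In H2A.Z.1 subconfluent Exp1 it began 1017 bp inside, likewise outside, at percentile 37.8. In H2A.Z.1 subconfluent Exp2 it began 1458 bp inside and was in the whole list only. The window edge thus set part of the difference between the states. Because KDM2B was absent from some lists, it did not enter the fit of scores.

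RefSeq lists 4 starts for KDM2B, at 1256, 2033, 2620 and 114901 bp inside the annotated gene. In ranges chosen after the values were seen, an interval with its summit 59 to 252 bp after the annotated start was used from 4 of 4 postconfluent and 0 of 4 subconfluent lists. In the whole lists it was present in 4 of 4 postconfluent and 2 of 4 subconfluent ones, so in 2 of the subconfluent lists it was listed below the strongest 30603 and not missing. H2A.Z.2 subconfluent Exp2, the shortest list, had no interval by the first 3 listed starts. The interval with its summit 2759 to 3210 bp inside KDM2B, beyond the listed start at 2620 bp, was found in the 7 other lists. It stood at percentile 70.9 and 63.8 for H2A.Z.2 and 45.5 and 67.6 with H2A.Z.1 in postconfluent cells, against 27.7 for H2A.Z.2 Exp1 and 35.2 and 51.9 for H2A.Z.1 in subconfluent cells. These overlapped.

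Deeper in KDM2B, an interval with its summit 44690 to 45401 bp from the annotated start was present in 8 of 8 whole lists and 7 of 8 reduced ones. The nearest listed start of the gene was 42070 to 42781 bp away. Its percentile reached 79.4 in H2A.Z.1 postconfluent Exp1 and was 16.8 in H2A.Z.2 subconfluent Exp2. At the listed start farthest inside, the gene had an interval in 4 of 8 whole lists, with its summit 464 to 638 bp before that start.

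KDM3A, an H3K9 mono- and dimethyl demethylase and a known hypoxia-responsive gene, had no interval within 1 kb of either annotated end. Its gene is annotated on chromosome 2 from 86437044 to 86492716 on the plus strand, while its listed starts are 4327 and 4417 bp inside that span. An interval of 838 to 1161 bp had its summit 334 to 452 bp before the first listed start in 8 of 8 lists. It stood at percentile 71.5 and 83.6 for H2A.Z.2 and 70.7 and 34.9 with H2A.Z.1 in postconfluent cells, against 75.8 and 95.7 for H2A.Z.2 and 88.9 and 58.2 for H2A.Z.1 in subconfluent cells. Each of the 4 pairs was lower in postconfluent cells, though the 2 sets overlapped, at a place chosen after the values were seen. A weaker interval 694 to 780 bp after the second listed start was present in 7 of 8 whole lists. With windows around listed starts instead of gene ends, 9 of the 10 genes, all but KDM2B, had an interval in all 8 lists, against 57.7% of the 15843 genes with listed starts.

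KDM3B, which acts on the same H3K9 marks as KDM3A, had a single interval on the inner side of its start. The gene lies on chromosome 5 from 138352685 to 138437027 on the plus strand, and the summit stood 667 to 864 bp inside it. The percentile was 50.1 and 88.4 for H2A.Z.2 and 55.0 and 52.6 with H2A.Z.1 in postconfluent cells, against 44.8 and 86.9 for H2A.Z.2 and 49.5 and 85.1 for H2A.Z.1 in subconfluent cells. Of its Exp2 values, 3 of 4 were above 85.0 and all 4 Exp1 values were at 55.0 or below. Its score difference was -0.24 (SE 0.458).

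KDM4A, which removes trimethylation of H3K9 and H3K36, had the widest intervals of the set by their median, 1579 bp. It lies on chromosome 1 from 43650149 to 43705518 on the plus strand. The interval was 1361 to 1903 bp wide with its summit 35 to 123 bp after the start in all 8 lists. KDM4A stood at percentile 83.9 and 98.8 for H2A.Z.2 and 93.3 and 85.0 with H2A.Z.1 in postconfluent cells, against 81.1 and 99.3 for H2A.Z.2 and 92.6 and 98.7 for H2A.Z.1 in subconfluent cells. The states overlapped, and the score difference was -0.39 (SE 0.443).

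KDM4B, the sister enzyme with the same targets, differed by state in rank and varied widely. The gene lies on chromosome 19 from 4969113 to 5153598 on the plus strand. Its interval was upstream, with the summit 540 to 717 bp before the start. The percentile was 52.0 and 88.0 for H2A.Z.2 and 53.8 and 36.9 with H2A.Z.1 in postconfluent cells, against 22.4 and 48.3 for H2A.Z.2 and 18.7 and 11.4 for H2A.Z.1 in subconfluent cells. Each of the 4 pairs was higher in postconfluent cells, by 25.5 to 39.7 percentile points. The sets overlapped because the H2A.Z.2 subconfluent Exp2 value, 48.3, exceeded the lowest postconfluent one. The score difference was 1.18 (SE 0.385).

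On the inner side of the KDM4B start, an interval with its summit 846 to 1020 bp after it was present in 7 of 8 whole lists but used from 3. Far inside the gene, an interval 135891 to 135981 bp from the start was present in 7 of 8 whole lists. One 77277 to 77350 bp from it was present in 3 of 8, all of them postconfluent, and was absent from H2A.Z.2 postconfluent Exp1. It was weak, used from 2 lists at percentiles 12.6 and 37.7, at a place chosen after the values were seen. KDM4B has no second listed start.

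By order of the median percentile over the 8 lists, KDM5A was first at 97.2, then KDM1B at 93.9 and KDM4A at 93.0, and their ranges overlapped. KDM1A followed at 69.1 and KDM5B at 68.0, then KDM3B at 53.8 and KDM2A at 49.4, with KDM4B last at 42.6. Neighbours in this order overlapped in range in every case. The step from KDM4A to KDM1A was the widest between neighbouring medians, and their values overlapped between 81.1 and 85.5.

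Across all 10887 genes, limma with Benjamini-Hochberg adjustment called 5 genes by state, which is 0.0459% of them, and 0 of the 8 ranked KDM genes were among these. Nothing is read from that count, since the set was chosen on the same values, and it was not 0 under every alternative. Among alternatives that used all 8 lists, KDM5B was called when ranked by −log10 p, where 41 of all ranked genes were called. It was also called with the experiment number or the sequencing run as a block, where 9 and 16 genes were called. In the main fit, 995 genes had an unadjusted p under 0.05. Groups of 4 lists failed to overlap, lower in postconfluent cells, for 1 of the 8 genes, KDM5B, and for 2.78% of all ranked genes. In the higher direction this was 0 of 8 and 2.72%. All 4 pairs of the same form and experiment were higher in postconfluent cells for 3 of the 8 genes, KDM1A, KDM2A and KDM4B, against 9.95% of all ranked genes, and lower for 1 of 8, KDM5B, against 10.2%. These pairs use the strongest interval of each list, which for KDM2A and KDM5B was not always the same one. The median score difference of the 8 genes was -0.05, and that of all ranked genes was -0.0026.

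The score difference of KDM5B was between -2.20 and -0.94 over 14 alternatives, all negative. It was not ranked with halved lists or where the summit itself had to lie in the window, since it was then missing from at least 1 list. KDM1A, KDM2A and KDM4B were positive in all 15 of theirs. They ranged from 0.69 to 1.04 for KDM1A, from 0.095 to 0.64 for KDM2A and from 0.80 to 1.55 for KDM4B. The lowest value of KDM2A came from the 2 kb window. For KDM1B, KDM3B, KDM4A and KDM5A the sign changed in 1 to 4 of 16 alternatives. Interval width was not called by state for any of the 8 genes, against 0.0459% of all ranked genes.

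**Figure D3:**
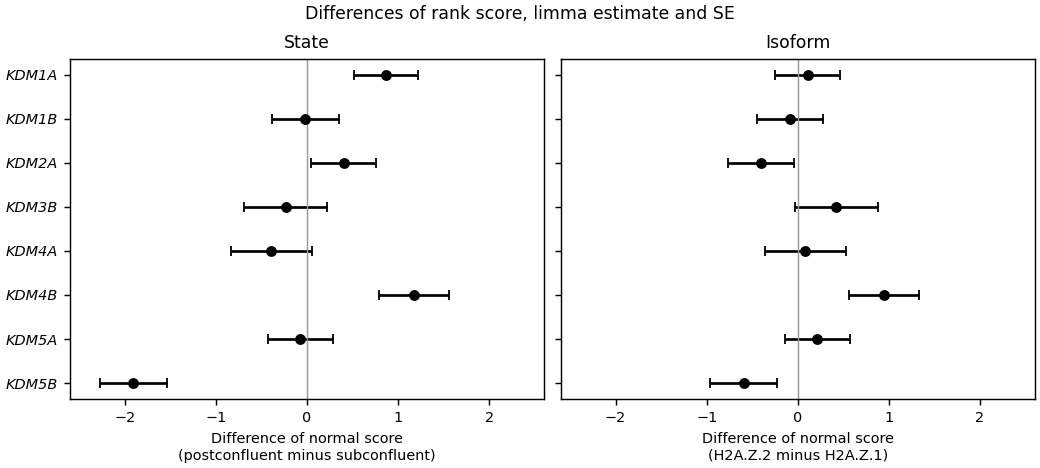
Difference of normal score (x axis) with its SE for the 8 genes present in all lists, postconfluent minus subconfluent on the left and H2A.Z.2 minus H2A.Z.1 on the right. KDM5B lies at -1.91 and KDM4B at 1.18 by state, and KDM4B lies at 0.95 by form.

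Between the forms, KDM4B differed most. Its score for H2A.Z.2 minus that for H2A.Z.1 was 0.95 (SE 0.385). In Exp2, where both forms were on the same sequencing run, it was 2.01 in postconfluent and 1.21 in subconfluent cells, and in Exp1, where form and run cannot be told apart, it was 0.08 and 0.49. KDM5B was lower for H2A.Z.2 by the score, at -0.59 (SE 0.367). In Exp2 the KDM5B difference was -1.17 in postconfluent and -1.09 in subconfluent cells, whereas in Exp1 it was -0.40 and 0.29. In both H2A.Z.2 postconfluent lists the KDM5B score came from the weaker interval nearer the start, so unlike intervals were compared. At the inner interval the postconfluent percentiles were 49.5 and 38.1 for H2A.Z.2 and 53.2 and 54.9 with H2A.Z.1. KDM2A was at -0.40 (SE 0.360), and at 0.31 with a 2 kb window. It differed by -0.87 in postconfluent and -0.79 in subconfluent cells in Exp2 and by 0.04 and 0.01 in Exp1. The Exp2 values of KDM2A compared unlike intervals, before the start for H2A.Z.1 and after it for H2A.Z.2. At the interval after the start the Exp2 percentiles were 46.5 for H2A.Z.2 and 60.0 for H2A.Z.1 in postconfluent cells. In subconfluent cells they were 39.4 for H2A.Z.2 and 35.8 for H2A.Z.1, in the other direction.

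For the other 5 genes the differences between the forms were smaller than that of KDM5B. KDM3B was at 0.42 (SE 0.458), KDM5A at 0.22 (SE 0.360), KDM1A at 0.11 (SE 0.352), KDM4A at 0.08 (SE 0.443) and KDM1B at -0.09 (SE 0.366). With the sequencing run as a block, which leaves the forms compared in Exp2, these became 0.80 for KDM3B, 0.71 for KDM5A, -0.19 for KDM1A, 0.83 for KDM4A and 0.27 for KDM1B, so that the sign turned for KDM1A and KDM1B. In the same fit KDM4B was at 1.61, KDM5B at -1.13 and KDM2A at -0.83. For KDM5B this value too compared unlike intervals in postconfluent cells, and for KDM2A in both states. Groups of 4 lists overlapped for all 8 genes, against 1.11% of all ranked genes that did not overlap and were higher for H2A.Z.2 and 0.900% that were lower. By limma with Benjamini-Hochberg adjustment 0 of 10887 genes were called by form, and 406 had an unadjusted p under 0.05. For the difference of the state effect between the forms, 0 genes were called and 341 had an unadjusted p under 0.05. KDM1A at -1.20 and KDM1B at 1.15 (SE 0.733) had the largest such values of the 8 genes.

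Of the 58 genes of 4 companion lists, chosen with earlier results known, 46 had an interval in all 8 lists and entered the fit. Among these 46 there were 0 calls by state, against 0.0459% of all ranked genes, and 0 by form or for the interaction, as among all ranked genes. Of 14 other histone demethylases, 9 had an interval in all 8 lists. JMJD6, which acts on arginine and lysine residues, had the largest state difference there, 1.18 (SE 0.477), with an adjusted p of 0.444 by limma. KDM5C, the X-linked relative of KDM5A and KDM5B, had the largest difference between forms, 0.33 (SE 0.361).

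Of 17 partners of KDM1A and KDM2B complexes, 14 were present in all 8 lists, with a median state difference of 0.32. RNF2, the ubiquitin ligase of PRC1, was at 1.05 (SE 0.376, adjusted p = 0.371 by limma). It stood at percentile 91.7 and 89.8 for H2A.Z.2 and 89.0 and 97.4 with H2A.Z.1 in postconfluent cells, against 86.2 and 71.8 for H2A.Z.2 and 80.0 and 58.3 for H2A.Z.1 in subconfluent cells. Its groups did not overlap, as for 2.72% of all ranked genes in this direction, and RNF2 is named as the largest state difference of its list. USP7, a deubiquitinase, had the largest form difference of this list, -1.01 (SE 0.472), and its H2A.Z.2 subconfluent Exp1 percentile was 21.1 while its other 7 were 89.6 or above.

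Genes of the enzymes that write the marks gave similar counts. Of 12 genes for H3K4 methyltransferases and their shared subunits, 10 were present in all 8 lists, with a median state difference of 0.07. SETD1A, a catalytic subunit, was at 0.71 (adjusted p = 0.609 by limma), and WDR5, a shared subunit, had a form difference of -0.49. Of 15 genes for H3K9, H3K27 and H3K36 methyltransferases and PRC2 subunits, 13 were present in all 8, with a median of 0.29. EZH1, a catalytic subunit of PRC2, was at 1.14 (SE 0.425, adjusted p = 0.389 by limma), and SETDB1, an H3K9 methyltransferase, had a form difference of 0.70.

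Genes whose score followed that of KDM5B over the 8 lists were found by Pearson's r, as a description over lists that share runs and states. GLB1L and STK16, which share an interval, were closest at 0.982, followed by ATP6V1F at 0.967, MRAS at 0.960 and NCAM1 at 0.957. They lie on chromosomes 2, 7, 3 and 11 and KDM5B on chromosome 1.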

How the data were processed

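Flag ChIP-seq of tagged H2A.Z.1 and H2A.Z.2 was deposited as a separate list of peaks for each sample, with no pooled replicates. Of 17 labelled samples, the 8 Flag lists were used and 9 samples are not analysed here. The submitters' processing notes name hg38, BWA and deepTools. No source used here gives the peak caller, its control, its threshold or any use of the spike-in. In each deposited list the score is 10 times the −log10 q-value, cut to a whole number. The authors' fold enrichment is a linear ratio over a background that no source used here names. The deposited p-values and q-values are on a −log10 scale, and the deposited summit is a distance in bp from the interval's start. Fold enrichments are the authors' own values that served to rank intervals inside one list and, at KDM5B, to divide one interval's value by its neighbour's. A list holds only intervals past the authors' threshold, so no depth, counting interval or floor can be given, and an unlisted place may hold weaker signal.

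The 30603 intervals of highest −log10 p were kept from each list, and fold enrichment became a percentile within it. Genes were the 20037 protein-coding genes of GRCh38.p14 with coordinates and starts from RefSeq tables. A gene's position was the one of its annotated ends whose mean percentile over the 8 lists was higher, and an interval counted if it overlapped the 1 kb on either side by at least 1 bp. For 10887 genes with one in all 8 lists, ranks became normal scores. These entered limma 3.58.1 under R 4.3.3, with a mean for each of the 4 groups and a common spread, 2-sided, with Benjamini-Hochberg adjustment at 0.05. A score gives a gene's standing relative to the ranked genes and not the amount of bound protein. Exons and introns are not used here.

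The members and lists were chosen with earlier results of these data known. All 10 members are named. From each companion list the genes of largest state and form difference are named, and 5 genes most like KDM5B. Places within genes were set after seeing the intervals. Alternatives were whole and halved lists, a 2 kb window, the summit in the window, ranks by −log10 p, each list left out, and the experiment number as a block. The sequencing run as a block and windows at listed starts were added after seeing the data.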

Additional observations from a re-analysis of the deposited data

How the results depend on the processing

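By state, 5 genes were called. This became 16 with the sequencing run as a block, 0 with halved lists, 3 with the summit in the window, 41 ranked by −log10 p and 0 to 5 with each list left out. By form, 0 became 1 with the run block. For state within H2A.Z.1, 0 became 2 with the run block, 3 with a 2 kb window and 0 to 2 with lists left out, and within H2A.Z.2 0 to 1 with lists left out. For width by state, 5 became 1 with halved lists, 3 with the summit in the window and 0 to 4 with lists left out. KDM genes present in all 8 lists numbered 8, then 4 with halved lists and 7 with the summit in the window, where KDM5B was the gene lost. Halved lists and left-out lists hold fewer genes or samples, and for the other settings the cause was not tested. The form difference of KDM2A was 0.31 with a 2 kb window, opposite in sign to the value reported.

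Experiment numbers are shared by the groups. Deviations of same-numbered lists correlated at 0.207 between the states of H2A.Z.1, at 0.158 between those of H2A.Z.2 and at -0.0553 to 0.0496 for the other 4 pairs of groups. The main fit did not take the number as a pairing, although the groups that correlated were the states of a form, which share a run. With the number as a replicate block, calls were 9 by state, 0 by form, 2 for state within H2A.Z.1, 1 within H2A.Z.2 and 3 for width.

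With 2 lists a group and no read depth, the lists set the limit: signal under the authors' threshold is not seen, and the shortest list, H2A.Z.2 subconfluent Exp2, sets how much of the others is used. Where a list was left out, the remaining list of that group was assumed to vary like the other groups.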
